A study of Danio rerio with 4 samples.

Results

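The genes described here encode the enzymes that attach a soluble group to small molecules: UDP-glucuronosyltransferases (UGT), glutathione S-transferases (GST, with the membrane-bound MGST) and cytosolic sulfotransferases (SULT). They were chosen by symbol, as every gene of the Ribo-seq table whose symbol opens with ugt and a digit, gst and a class letter, mgst, or sult and a digit. The choice gave 72 gene IDs among 25196 in that table, of which 29 were UGT, 23 GST (5 of them MGST) and 20 SULT, and all 72 were also among the 26662 IDs of the RNA-seq table. Heads of zebrafish (Danio rerio) noc4l mutants were set against heads of their siblings at 5 days post fertilization (dpf). Each genotype gave 1 RNA-seq library, which samples polyadenylated RNA, and 1 Ribo-seq library, which samples the fragments that ribosomes protect (footprints). The mutants are homozygous for a CRISPR/Cas9 lesion in noc4l, a nucleolar factor needed to make the small ribosomal subunit, and the control libraries are titled sibling, with WT as their genotype. Neither the labels nor the methods say how many heads went into a library. With 1 library per genotype and assay there is no test, and every interval below covers counting error only and not the spread between fish.

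Conjugation is the second step of xenobiotic metabolism and also handles the body's own compounds. UGT enzymes sit in the endoplasmic reticulum and transfer glucuronic acid from UDP-glucuronate, for example to bilirubin and steroids. GST enzymes add glutathione to electrophiles, and several of them also isomerize or reduce their substrates. SULT enzymes transfer sulfate from PAPS to phenols, steroids and amines, including thyroid hormones and catecholamines. In vertebrates all 3 classes are most abundant in liver and gut, while single members are known from brain, skin or sense organs.

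The RNA-seq libraries held 17395024 counts from mutant heads and 15018488 from sibling heads, and the Ribo-seq libraries 19823848 and 12181046. Counts were scaled by TMM and are given as CPM, that is counts scaled to a common library size. A gene was called lower or higher in mutant heads at a ratio of 2 or more, provided that its 2 libraries in that assay summed to 100 counts or more. noc4l itself had 45 RNA counts in the mutant library and 443 in the sibling library. That is -3.58 on the log2 scale, mutant over sibling, with a 95% interval of -4.07 to -3.15. Its footprints numbered 15 in the mutant and 93 in the sibling library. Neuronal markers, expected of a head, summed to 2117 CPM in mutant RNA and 2047 in sibling RNA. Markers of digestive organs were present as well: liver markers summed to 9385 CPM in mutant RNA and 20073 in sibling RNA, intestine markers to 1396 and 7500, and exocrine pancreas markers to 399 and 8750. In bulk heads, fewer cells of a type, less RNA per cell and a different amount of trunk tissue left on the heads cannot be told apart. The paper's methods describe heads kept in TRIzol for RNA-seq and flash-frozen heads for Ribo-seq. A ratio of footprints to RNA therefore compares separate material, whose tissue content may differ.

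Conjugating enzymes as a whole had less RNA in mutant heads. Of the 54 members over the count minimum, 35 (64.8%) were lower in mutant heads and 0 were higher. Among all 17243 genes measured in RNA, 6.16% were lower and 3.14% higher. The median log2 ratio was -1.26 over the 54 members and 0.01 over all genes, and 51 of the 54 ratios were below 1. Counting intervals lay wholly below a ratio of 1 for 47 members and wholly above it for 2 (sult2st3 and gstt2). The other 18 members were under the minimum and are not placed: 9 UGT IDs (ugt1b3, ugt1b4, ugt1b7, ugt5b5, ugt5c1, ugt5c2, ugt5e1, ugt5g2 and 1 of the ugt2a7 IDs), gstk2 and both gstk4 IDs, and sult1st7, sult1st9, sult3st4, sult3st5, sult5a1 and 1 of the sult3st3 IDs. Of these ugt5b5 had 0 counts in all 4 libraries.

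The classes differed in how far their RNA was reduced. UGT RNA summed to 276 CPM in mutant heads and 919 CPM in sibling heads, a log2 ratio of -1.73 (-1.78 to -1.69). Summed GST RNA was 1035 CPM in mutant heads and 2837 CPM in sibling heads, at -1.45 (-1.48 to -1.43). For SULT the sums were 357 CPM in mutant heads and 683 CPM in sibling heads, at -0.94 (-0.98 to -0.89), just short of a ratio of 2. These intervals do not overlap, though whether the order holds between fish cannot be said from 1 library each. Without its most counted member the GST sum came to -1.69 (-1.72 to -1.65, gstp1 left out), the UGT sum to -1.42 (-1.48 to -1.37, ugt1a1 left out) and the SULT sum to -0.85 (-0.91 to -0.80, sult6b1 left out). The order of UGT and GST thus rested on those 2 genes, while SULT had the smallest reduction either way. By members, 16 of 20 measured UGT genes (80.0%), 11 of 20 GST genes (55.0%) and 8 of 14 SULT genes (57.1%) were lower. The class medians were -1.49 for UGT, -1.10 for GST and -1.05 for SULT.

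**Figure D1:**
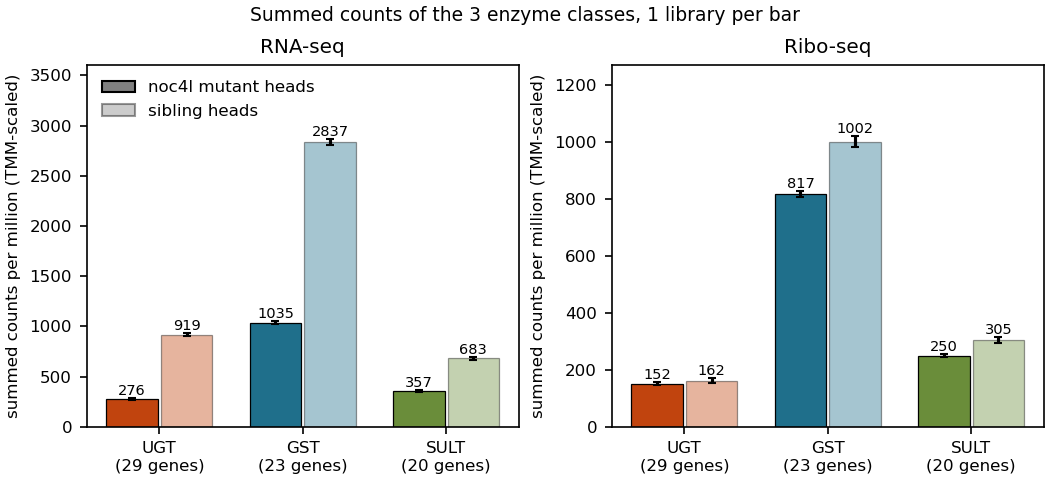
Summed CPM (TMM-scaled) of the UGT, GST and SULT members in RNA-seq (left) and Ribo-seq (right), dark bars for noc4l mutant heads and pale bars for sibling heads, 1 library per bar, with 95% Poisson counting intervals. In RNA the mutant bars stand at 276, 1035 and 357 CPM, below the sibling bars of 919, 2837 and 683 CPM, whereas in footprints the paired bars are within a ratio of 2.

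Among the UGT genes, ugt1a1 led in level and was among those that fell. Mammalian UGT1A1 conjugates bilirubin. It stood at 36.4 FPKM (a scale corrected for gene length and depth, on which different genes can be set side by side) in mutant RNA and 186 FPKM in sibling RNA. It made up 25.3% of the class's summed FPKM in mutant heads and 38.4% in sibling heads. Its log2 ratio was -2.57 (-2.67 to -2.47), from 54.9 CPM in mutant and 325 CPM in sibling heads. In the RefSeq annotation (GRCz12tu) its span overlaps those of other ugt1a genes, so its count may hold reads of several alternative first exons.

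The 6 ugt1b genes form one neighbouring cluster with overlapping spans, and they did not move together. ugt1b1, the most abundant of them, had 40.7 CPM in mutant and 47.4 CPM in sibling RNA, at -0.22 (-0.37 to -0.07). In contrast, ugt1b5 fell to 13.2 CPM in mutant RNA, against 33.0 CPM in sibling RNA, at -1.32 (-1.55 to -1.09). ugt1b2 fell further, to 13.0 counts in the mutant library against 94.8 in the sibling library, at -3.11 (-4.12 to -2.32). Because counts of these genes carry fractions, reads were shared among them, and the sum over the cluster depends less on how. That sum was 1002 counts in mutant and 1305 in sibling RNA, a log2 ratio of -0.67 (-0.80 to -0.56).

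UGT2 genes fell in 4 of 5 measured cases. ugt2a4, at 18.6 FPKM in mutant and 51.5 FPKM in sibling heads the second UGT by level in sibling RNA and the third in mutant RNA, had 34.2 CPM in mutant and 100.4 CPM in sibling RNA, at -1.55 (-1.69 to -1.42). Its neighbour ugt2a5 had 6.65 CPM in mutant and 9.49 CPM in sibling RNA and was not called, at -0.51. Of the 3 IDs that carry the symbol ugt2a7, ENSDARG00000093043 fell by 2.28 on the log2 scale and ENSDARG00000091624 by 1.07, while the third was under the minimum. Summed over the 3 IDs, ugt2a7 had 387 counts in mutant and 1081 in sibling RNA, at -1.78 (-1.95 to -1.61).

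The largest UGT reductions were in UGT5, a family known from fish and amphibians and not from mammals. Of its 10 measured members 9 fell, with a median of -2.28. ugt5a2 had 1.90 CPM in mutant and 18.0 CPM in sibling RNA, at -3.23 (-3.81 to -2.73). ugt5b4 had 7.84 CPM in mutant and 71.6 CPM in sibling RNA, at -3.19 (-3.46 to -2.94). For ugt5b2 the 2 IDs parted: ENSDARG00000099276 fell by 3.11 and ENSDARG00000101495 by 1.25. The 5 ugt5b IDs together had 487 counts in mutant and 2449 in sibling RNA, at -2.62 (-2.77 to -2.48), so the drop does not hinge on how reads were divided among them. ugt5b1 (-2.66) and ugt5d1 (-2.78) also fell steeply, whereas ugt5c3 (-1.06) and ugt5g1 (-1.01) lay just inside the call. The exception was ugt5f1, with 77 counts in mutant and 68 in sibling RNA, at -0.12 (-0.60 to 0.38).

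ugt8 stood apart in function, since it makes the galactolipid of myelin rather than conjugating xenobiotics. It had 42.5 CPM in mutant and 58.6 CPM in sibling RNA, at -0.46 (-0.61 to -0.32), and was not called. Glia and myelin markers had a median RNA log2 ratio of -0.35 over 11 measured genes.

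GST RNA was dominated by a few genes. gstp1, of the pi class, had the highest level of all 72 members, at 456 FPKM in mutant and 850 FPKM in sibling RNA. With 396 CPM in mutant and 781 CPM in sibling RNA its log2 ratio was -0.98 (-1.02 to -0.94), just outside the call. Its close relative gstp2 was called, at 24.5 CPM in mutant and 89.8 CPM in sibling RNA and a log2 ratio of -1.87 (-2.03 to -1.72). Summed, the pair gave -1.05 (-1.09 to -1.01).

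Alpha-class genes fell, and gsta.1 had the largest difference in CPM of any member. It had 105 CPM in mutant and 662 CPM in sibling RNA, at -2.66 (-2.73 to -2.59). The neighbouring gsta.2 had 16.4 CPM in mutant and 64.2 CPM in sibling RNA, at -1.97 (-2.16 to -1.78). Both RefSeq spans overlap nrxn1b, a neuronal gene. Omega-class enzymes, which reduce dehydroascorbate in mammals, fell as well. gsto1 had 91 counts in mutant and 545 in sibling RNA, at -2.87 (-3.21 to -2.55), the largest reduction of any GST. gsto2 had 44.3 CPM in mutant and 177 CPM in sibling RNA, at -1.99 (-2.11 to -1.88).

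Other classes of GST were divided. gstr, of the fish rho class, had 62.1 CPM in mutant and 204 CPM in sibling RNA and fell by 1.72. Of the theta class, gstt1a fell by 1.26 and gstt1b by 1.89, while gstt2 had 136 counts in mutant and 83.5 in sibling RNA, at 0.40 (0.00 to 0.82). The 3 mu-class genes gstm.1 (-0.31), gstm.2 (-0.05) and gstm.3 (-0.04) were all within a ratio of 2, and so were gstk1, of the mitochondrial and peroxisomal kappa class (-0.73), and gstz1, the tyrosine-breakdown isomerase (-0.87). Summed, the mu genes had 1586 counts in mutant and 1474 in sibling RNA, at -0.19 (-0.29 to -0.09).

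Of the membrane-bound enzymes mgst3b was the most abundant, at 110 CPM in mutant and 355 CPM in sibling RNA, and fell by 1.69 (-1.77 to -1.62). mgst3a fell by 1.13 and mgst2, which can make leukotriene C4 in mammals, by 1.07. mgst1.1 (-0.24) and mgst1.2 (-0.62) were not called.

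**Figure D2:**
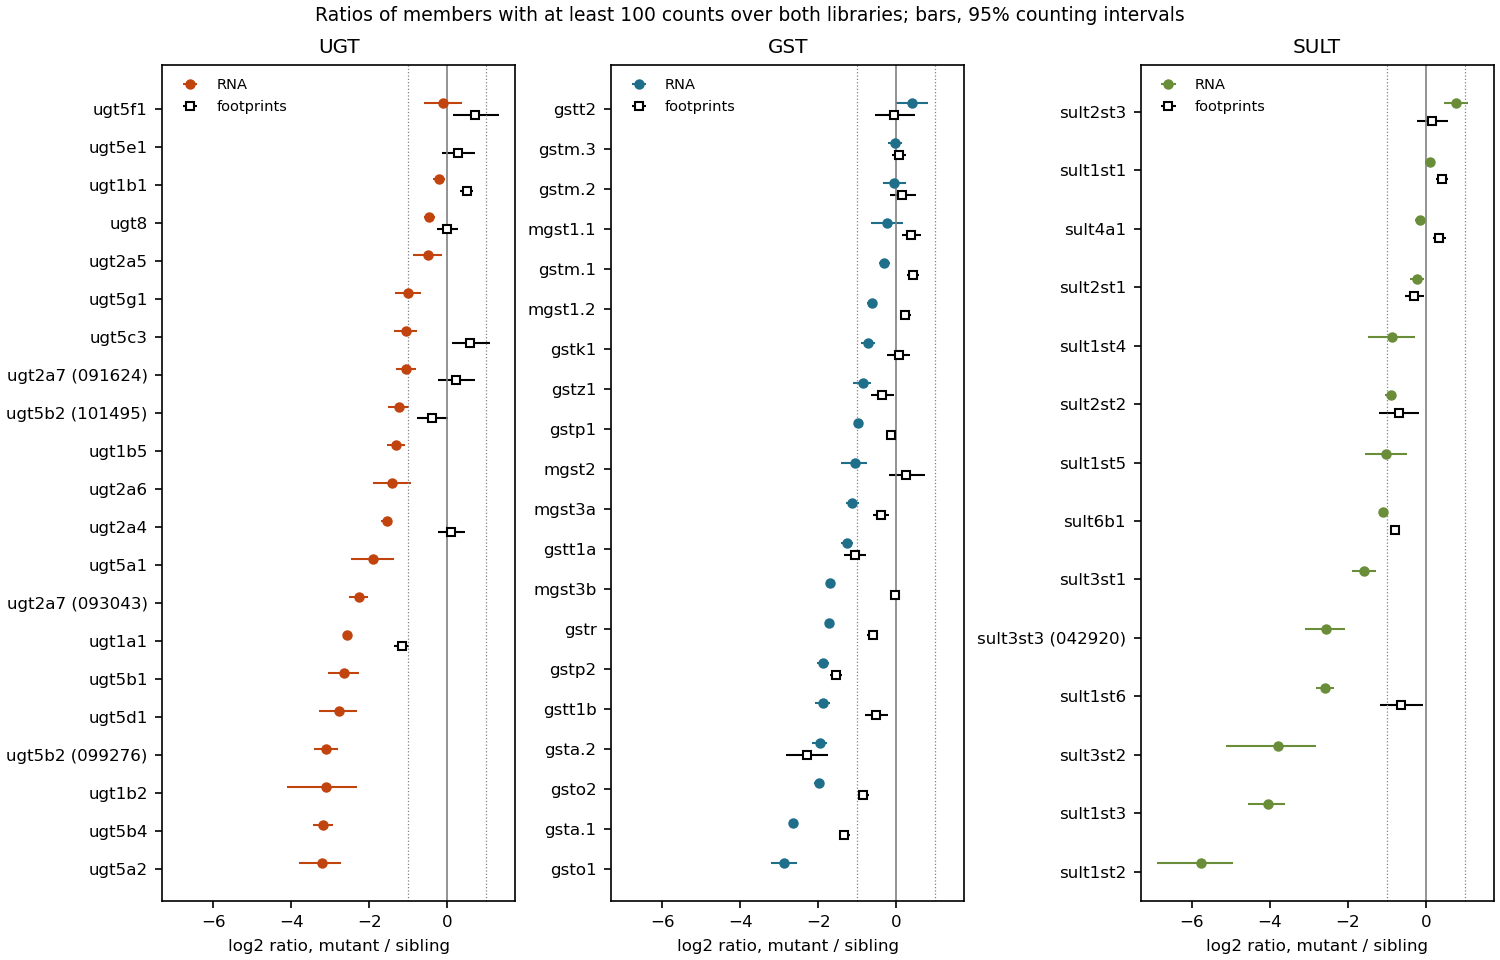
Log2 ratios of mutant to sibling heads for every UGT, GST and SULT member with at least 100 counts over both libraries, filled circles for RNA and open squares for footprints, with 95% counting intervals and dotted lines at a ratio of 2. RNA circles run down to -3.23 in UGT, -2.87 in GST and -5.77 in SULT, while only 5 footprint squares pass the dotted line at the left.

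The SULT genes held the steepest reductions of any measured member, beside genes near a ratio of 1. sult1st2 had 10.1 counts in the mutant library and 473 in the sibling library, at -5.77 (-6.90 to -4.95). Its neighbour sult1st3 had 42.9 counts in mutant and 587 in sibling RNA, at -4.05 (-4.55 to -3.62). Counts of both carry fractions, so the sum of the pair depends less on how reads were shared. That sum was 53 counts in mutant and 1060 in sibling RNA, at -4.60 (-5.04 to -4.22). Both belong to SULT1, whose mammalian members sulfate phenols, and lie in a cluster of 5 with sult1st1, sult1st7 and sult1st9. Yet sult1st1 had 70.3 CPM in mutant and 65.4 CPM in sibling RNA, at 0.11 (-0.02 to 0.23), so neighbours within a few genes of each other parted widely. Elsewhere in SULT1, sult1st6 fell by 2.58 (-2.82 to -2.36) and sult1st5 by 1.01, on 49 counts in mutant and 81 in sibling RNA, while sult1st4 was not called (-0.86).

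All 3 measured SULT3 genes fell. sult3st2 had 8 counts in mutant and 95 in sibling RNA (-3.78, interval -5.12 to -2.83), sult3st3 (ENSDARG00000042920) had 41 and 199 (-2.56), and sult3st1 had 126 and 308 (-1.58). None of the SULT2 genes, relatives of the steroid sulfotransferases, was called: sult2st1 stood at -0.22, sult2st2 at -0.90 and sult2st3 at 0.77. sult2st3 had 278 counts in mutant and 133 in sibling RNA (interval 0.47 to 1.08), the highest RNA ratio of any measured member. sult6b1 was the SULT with the highest level, at 78.8 FPKM in mutant and 159 FPKM in sibling RNA, and fell by 1.09 (-1.17 to -1.02). The brain-enriched sult4a1 had 52.9 CPM in mutant and 58.4 CPM in sibling RNA, at -0.14 (-0.28 to -0.01), beside a median of 0.07 over 13 neuronal markers.

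Footprints of the same genes differed much less between the genotypes. Of 35 members over the minimum in Ribo-seq, 5 were lower in mutant heads and 0 higher, where 3.61% of all 15729 measured genes were lower and 1.89% higher. The median log2 ratio was -0.05 over the 35 members and 0.02 over all genes. Summed footprints were 152 CPM in mutant and 162 CPM in sibling heads for UGT, at -0.10 (-0.18 to -0.01). GST footprints summed to 817 CPM in mutant and 1002 CPM in sibling heads, at -0.29 (-0.33 to -0.26), and SULT footprints to 250 CPM in mutant and 305 CPM in sibling heads, at -0.29 (-0.35 to -0.22). These sums leaned on single genes. Without its most counted member the UGT sum came to -0.33 (-0.43 to -0.23, ugt1b1 left out) and the GST sum to -0.37 (-0.42 to -0.33, gstp1 left out). The SULT sum turned to 0.14 (0.05 to 0.23) with sult6b1 left out. Class medians were 0.21 for 9 UGT genes, -0.15 for 19 GST genes and -0.29 for 7 SULT genes. The minimum was set on raw counts and the mutant library was the deeper one. Sparse genes thus passed more easily with mutant footprints, which bears on these medians and on those of efficiency below. ugt5f1 passed with 136 footprints in mutant and 31 in sibling heads. The ugt2a7 ID ENSDARG00000093043, with 18.37 and 37.94 (-2.44), did not. The RNA medians above rest on more genes: over the members measured in both assays they were -1.07 for UGT, -1.07 for GST and -0.22 for SULT. Scaled by total counts, the UGT, GST and SULT sums turned to 0.61, 0.42 and 0.43, while the median of all genes moved to 0.74, so these ratios are relative to the other footprints of a library.

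All 5 genes with lower footprints were also lower in RNA, and 4 of them were GST. gsta.2 had 1.83 CPM in mutant and 8.97 CPM in sibling footprints, at -2.28 (-2.84 to -1.76). gstp2 had 27.4 CPM in mutant and 80.0 CPM in sibling footprints, at -1.54 (-1.70 to -1.39). gsta.1 had 29.9 CPM in mutant and 75.2 CPM in sibling footprints, at -1.33 (-1.48 to -1.18). For ugt1a1 the values were 20.7 CPM in mutant and 46.7 CPM in sibling footprints, at -1.17 (-1.36 to -0.99), and for gstt1a 9.42 CPM in mutant and 19.6 CPM in sibling footprints, at -1.06 (-1.34 to -0.77). These calls depended on the scaling: with total counts only gsta.2 stayed past a ratio of 2, and with the authors' TPM none did.

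The most footprinted members were not called. gstp1 had 302 CPM in mutant and 335 CPM in sibling footprints, at -0.15 (-0.21 to -0.09). sult6b1, with 37.6% of summed SULT TPM (likewise corrected for length) in mutant and 53.4% in sibling heads, stood at -0.80 (-0.89 to -0.70). mgst3b had 93.5 CPM in mutant and 96.6 CPM in sibling footprints, at -0.05 (-0.16 to 0.06). Above a ratio of 1 with intervals to match were ugt1b1 (0.49), ugt5f1 (0.70), ugt5c3 (0.58), gstm.1 (0.42), mgst1.1 (0.38), mgst1.2 (0.22), sult1st1 (0.40) and sult4a1 (0.35), and none of these reached 2. ugt5e1 was measured in footprints alone, with 213 counts in mutant and 66 in sibling heads, at 0.27 (-0.13 to 0.70).

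Low footprint counts of many members limited what Ribo-seq could show. Of the 35 members lower in RNA, 18 were under the footprint minimum, 11 of them UGT and 6 SULT. Over the 20 members measured in RNA but not in footprints, footprints summed to 590 counts in mutant and 312 in sibling heads, at -0.50 (-0.70 to -0.30), where RNA summed to 1546 and 6778 counts, at -2.43 (-2.51 to -2.35). Of these 20, counting intervals lay wholly below a ratio of 1 for 6 and wholly above it for 1. The latter was ugt5a1, with 57.45 footprints in mutant and 7.37 in sibling heads, at 1.46 (0.44 to 2.88). sult1st2 had 0 footprints in the mutant library and 7.60 in the sibling library, and ugt5d1 had 0 and 6. sult1st3, which shares reads with sult1st2, had 42.05 and 23.65, at -0.60 (-1.35 to 0.21). ugt1b5 had 0 footprints in both libraries, where the counting interval reaches 3.69 in each. Its RNA counts were 237 in mutant and 482 in sibling heads. The ugt1b genes, whose spans overlap, together had 1361 footprints in mutant and 365 in sibling heads, at 0.48 (0.31 to 0.65). Whether the 0 of ugt1b5 reflects how reads were shared among these genes was not tested.

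The ratio of footprints to RNA, called translation efficiency here, was higher in mutant heads for many members. Of 34 members measured in both assays, 11 were called higher in mutant heads and 0 lower, where 3.55% of 14455 genes were higher and 3.18% lower. The median log2 change was 0.74 over the 34 members and -0.01 over all genes. In 30 of the 34 the footprint ratio exceeded the RNA ratio, as it did in 7033 of the 14455 genes. By class, 4 of 8 UGT genes, 6 of 19 GST genes and 1 of 7 SULT genes were called, with medians of 1.07, 0.74 and 0.30.

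sult1st6 had the largest efficiency change, at 1.95 (1.38 to 2.51). Its RNA was 10.4 CPM in mutant and 62.8 CPM in sibling heads, whereas its footprints were 3.19 CPM in mutant and 4.94 CPM in sibling heads. ugt2a4 followed at 1.65 (1.28 to 2.02), with 10.3 CPM of footprints in mutant and 9.61 CPM in sibling heads beside the RNA values above. mgst3b and ugt5c3 both stood at 1.64. The remaining calls were ugt1a1 (1.39), gstt1b (1.38), gsta.1 (1.33), mgst2 (1.32), ugt2a7 (ENSDARG00000091624, 1.28), gsto2 (1.15) and gstr (1.12). At the other end sult2st3 (-0.60, interval -1.08 to -0.12), gstt2 (-0.47), gsta.2 (-0.32) and sult2st1 (-0.07) had footprint ratios below their RNA ratios, and none was called. Among GST genes lower in RNA, the efficiency changes of gstt1a (0.21), gsta.2 (-0.32) and gstp2 (0.33) were nearest to 0. The ugt2a7 call covers 1 of the 3 IDs with that symbol. Summed over the 3 IDs, ugt2a7 footprints stood at -0.49 (-0.85 to -0.12), beside -1.78 in RNA.

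**Figure D3:**
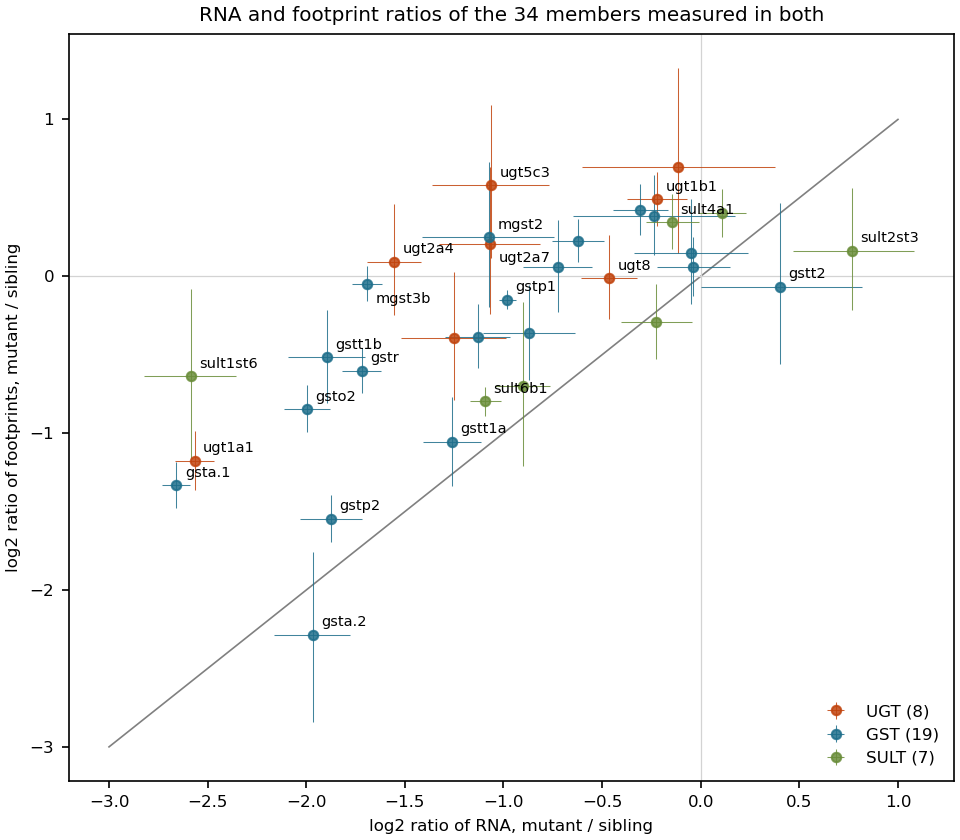
Log2 ratio of footprints against log2 ratio of RNA, both mutant over sibling, for the 34 members measured in both assays, coloured by class, with 95% counting intervals and a line where both ratios are equal. Points lie above the line for 30 of the 34 members, farthest for sult1st6 (1.95), and below it for sult2st3, gstt2, gsta.2 and sult2st1.

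The efficiency values can be read from each genotype's own libraries. In sibling heads the median ratio of footprint CPM to RNA CPM was 0.41 for the 34 members and 0.74 for all genes. In mutant heads it was 0.77 for the members and 0.74 for all genes. By class it was 0.59 in mutant and 0.28 in sibling heads for UGT, 0.82 and 0.43 for GST, and 0.62 and 0.65 for SULT. The sibling median was thus the lower one in UGT and GST, and the SULT medians were close. Gene by gene, the sibling ratio was the lower one in 5 of the 7 SULT genes as well. The 17 members with lower RNA had a median of 0.66 in mutant and 0.27 in sibling heads, and the 17 others 0.89 in mutant and 0.73 in sibling heads. Both the RNA ratio and this ratio use the sibling RNA count, so they are not independent. Across the 34 members the log2 ratios of RNA and footprints had a Pearson correlation of 0.69 and a Spearman correlation of 0.72, over genes that share 4 libraries and are not replicates.

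Of the 17 members lower in RNA and measured in both assays, 5 (29.4%) were lower in footprints and 11 (64.7%) higher in efficiency. The 509 other genes with lower RNA gave 38.7% and 38.3%. Median footprint ratios were alike, at -0.60 for the members and -0.65 for the other genes, while median RNA ratios were -1.69 and -1.41. Efficiency is the footprint ratio over the RNA ratio, so picking genes by lower RNA raises it by construction. The difference in efficiency calls therefore restates, in part, the difference in RNA.

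Digestive organ markers behaved differently between the assays and between the organs. Intestine markers were lower in RNA in 17 of 18 measured genes (median -2.31) and in footprints in 7 of 10 (-2.23). Exocrine pancreas markers were lower in 16 of 16 genes in RNA (-4.68) and in 13 of 13 in footprints (-5.34). Liver markers were lower in 13 of 19 genes in RNA, with 1 higher (-1.10), and in 17 of 18 in footprints (-2.92). Single liver genes ranged widely: fabp10a had 33 RNA counts in mutant and 5052 in sibling heads (-7.53), while the fibrinogen gene fgb had 6158 and 4119 (0.29). No marker of the 3 organs was at 0 in RNA of either genotype, and in mutant footprints 1 intestine marker (fabp6, also 0 in sibling) and 1 pancreas marker (cel.2) were. The Ribo-seq libraries held far less of these markers than the RNA-seq libraries of the same genotype: summed footprints per summed RNA came to 0.10 in mutant and 0.10 in sibling heads for liver, 0.05 and 0.04 for intestine, and 0.04 and 0.08 for pancreas. The mutant liver sum rested largely on 1 gene, rbp4, with 657 of 919 CPM of footprints, against 463 of 2030 CPM in sibling heads. rbp4 stood at 0.50 in footprints, where 17 of 18 liver markers were lower, so the equal liver values do not describe the other markers. Neuronal markers gave 1.51 in mutant and 1.43 in sibling heads. The enzymes lay between: UGT genes gave 0.55 in mutant and 0.18 in sibling heads, GST genes 0.79 and 0.35, and SULT genes 0.70 and 0.45. The other marker lists had medians of -0.07 for pronephros, -0.03 for olfactory epithelium, -0.32 for photoreceptors, 0.55 for cartilage and -0.38 for skin in RNA. The part of the digestive markers in the RNA and efficiency results of the conjugating enzymes was not tested.

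**Figure D4:**
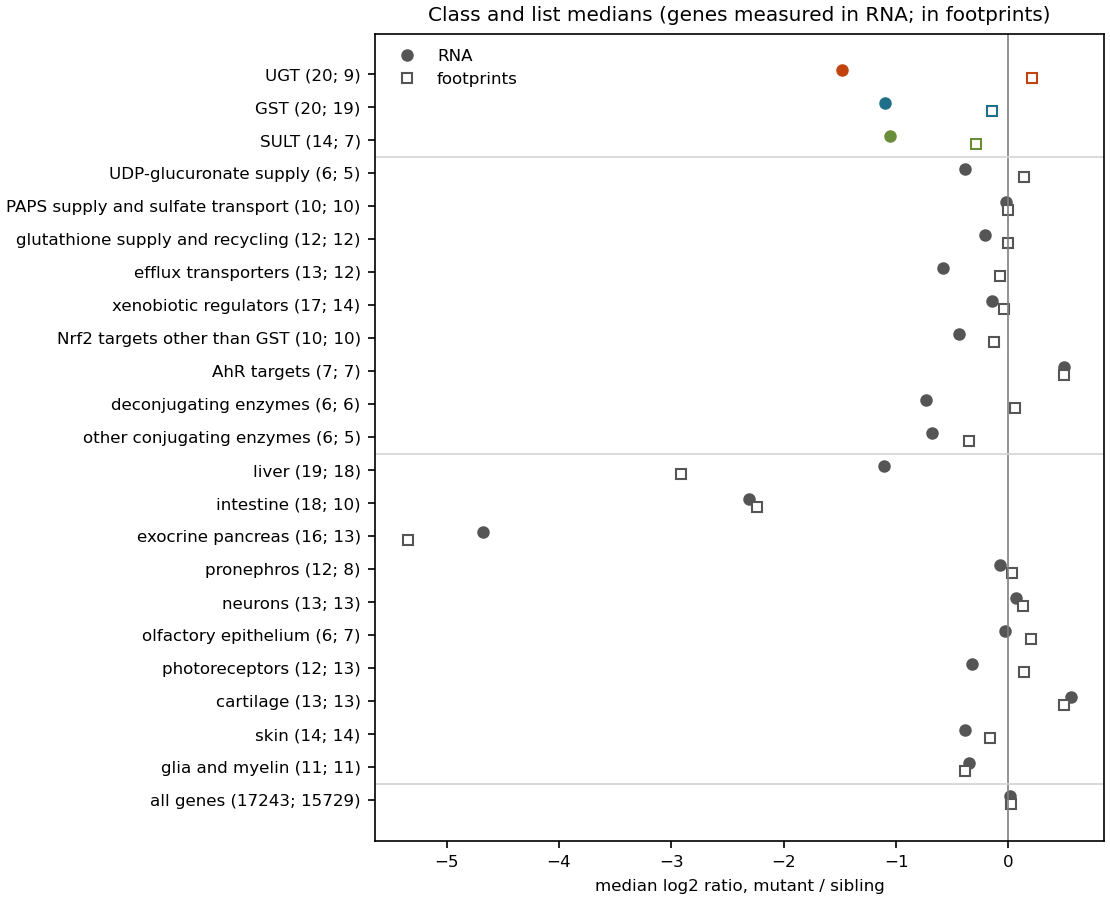
Median log2 ratio of mutant to sibling heads for the 3 enzyme classes, 9 lists of related pathway genes, 10 lists of cell type markers and all genes, filled circles for RNA and open squares for footprints, with the numbers of measured genes in parentheses. The class medians in RNA (-1.49, -1.10 and -1.05) lie beside the liver median (-1.10), and their footprint medians (0.21, -0.15 and -0.29) lie nearer 0 than the liver median of -2.92.

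Genes that supply the conjugated groups had RNA medians nearer 0 than the enzyme classes, at -0.38 for UDP-glucuronate, -0.02 for PAPS and -0.21 for glutathione. For UDP-glucuronate, 2 of 6 genes were lower in RNA and 1 of 5 in footprints: ugdh, which oxidizes UDP-glucose to UDP-glucuronate, had 654 RNA counts in mutant and 1293 in sibling heads (-1.28), and the transporter slc35d1b had 194 and 472 (-1.57). ugp2a was the gene lower in footprints (-1.04). For PAPS, 1 of 10 genes was lower in RNA, bpnt1 (-1.24), which removes the spent cofactor, and 1 of 10 in footprints, the PAPS synthase papss2a (-1.02, RNA -0.85). papss1 (0.38) and papss2b (-0.11) were not called in RNA. For glutathione, 1 of 12 genes was lower in RNA (cbsa, -1.07) and 1 higher (ggt1a, 1.26, on 83 counts in mutant and 28 in sibling heads), with 0 of 12 called in footprints. The rate-limiting subunits of glutathione synthesis, gclc (0.03) and gclm (-0.12), were near a ratio of 1.

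Of 13 efflux transporters, which export conjugates and other compounds, 6 were lower in RNA and 0 higher. abcb11b, a relative of the mammalian bile salt pump, had 45 counts in mutant and 655 in sibling RNA (-4.14), abcg2b had 20 and 280 (-4.07), and the conjugate exporter abcc2 had 1433 and 4549 (-1.96). abcc1 (-0.44), abcc4 (-0.37) and abcc5 (0.37) were not called. In footprints abcc2 (-2.22) and abcb11b (-5.82) were lower and abcg2d (1.06) higher. Translation efficiency had a median log2 change of 0.66 over 11 of these genes, 6 of them above 0 and 5 below, with 0 called higher and 1 lower. Summed footprints per summed RNA came to 0.70 in mutant and 0.40 in sibling heads. That ratio gives most weight to abundant genes: abcc2 held 312 of 1162 CPM of sibling RNA, and its efficiency change was -0.26 (-0.59 to 0.08). A higher summed value in mutant heads was thus not confined to the conjugating enzymes, though gene by gene the transporters were split.

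Regulators of these genes were mostly within a ratio of 2. Among 17 measured, nr1h4, the bile acid receptor, was the only one lower in RNA (-1.14), and 0 were higher. nr1i2, the pregnane X receptor, stood at -0.12, the aryl hydrocarbon receptor gene ahr2 at 0.44, and nfe2l2a, which encodes Nrf2, at -0.25. In footprints the receptor repressors ahrra (1.04) and ahrrb (1.06) were higher. Targets of the aryl hydrocarbon receptor, a list that also holds ahrra and ahrrb, had a median of 0.49 in RNA. Of these cyp1d1 was lower (-1.08), and cyp1a had 1149 CPM in mutant and 1318 CPM in sibling RNA (-0.20). In footprints all 7 measured targets were above a ratio of 1. There cyp1a had 1328 CPM in mutant and 837 CPM in sibling heads, at 0.67 (0.63 to 0.70). Nrf2 targets other than GST had a median of -0.44 in RNA, with hmox1a the 1 lower of 10 (-1.20) and nqo1 at -0.32. Their RNA ratios were below 1 in 9 genes and above it in 1. In footprints me1 was the 1 lower of 10 (-1.91).

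Further phase II enzymes and the enzymes that undo conjugation had RNA medians nearer 0 than the enzyme classes. Of 6 measured methyltransferases and other conjugating enzymes, comta was lower in RNA (-1.94), with 160 counts in mutant and 502 in sibling heads, and the median was -0.68. Among the 5 measured in both assays, comta (1.59) and tpmt.1 (1.20) were called higher in efficiency, with a median of 0.29. Of 6 deconjugating enzymes measured in RNA, arsg was lower (-1.21), 5 of the 6 ratios were below 1 and the median was -0.74. The glucuronidase gene gusb stood at -0.35. In footprints arsia was higher (1.18, on 87 counts in mutant and 14 in sibling heads).

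KEGG terms that the authors' tables attach to the members followed the class. Of the 72 members, 50 carried the term for metabolism of xenobiotics by cytochrome P450, of which 28 were UGT, 22 GST and 0 SULT. Steroid hormone biosynthesis was attached to 28 UGT and 4 SULT genes and glutathione metabolism to 22 GST genes. By position in RefSeq (GRCz12tu), where 59 members could be matched by symbol, 34 lay in 12 clusters of neighbours. Within the gsta, gsto, ugt5a and ugt5b clusters every measured gene was lower in RNA. Within the gstm and sult2st clusters none was, and the ugt1b, ugt2a and sult1st clusters held both kinds.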

How the data were processed

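Heads of noc4l mutant and sibling zebrafish were profiled by RNA-seq and Ribo-seq, with 1 library for each of the 4 groups. HISAT2 and featureCounts are named in the submitters' processing notes. Build, annotation, strandedness and the treatment of multi-mapped reads are not stated in the sources used here. GEO's labels describe poly(A) enrichment, while for Ribo-seq the methods name RNase treatment and ultracentrifugation. For each gene the authors deposited estimated counts, FPKM (RNA-seq) or TPM (Ribo-seq), and their own fold changes and p-values, which were not used. The estimated counts they deposited carry fractions for 27 of the 72 members in RNA-seq and 42 in Ribo-seq. A row with no gene ID, with 0.000746% of mutant and 0.00303% of sibling Ribo-seq counts, was left out.

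Libraries were scaled over all genes by TMM in edgeR 4.0.16 (R 4.3.3), with factors of 1.03 for mutant and 0.972 for sibling RNA-seq and 1.28 and 0.781 for Ribo-seq. Log2 ratios of mutant to sibling used CPM after 0.5 counts were added. Ratios have exact conditional binomial intervals, counts exact Poisson intervals, and efficiency changes intervals that add the Poisson errors of their 4 counts, all at 95%. Translation efficiency needed 100 counts in each assay. The size rule was tried on Poisson counts simulated around the sibling profile with known changes. Those counts held no spread between fish and were not scaled by TMM, so they bear on counting error only. Alternatives were total counts, DESeq2 1.42.0 size factors, a minimum of 10 counts, the authors' FPKM and TPM with 1 added, and scaling without the 4 most abundant Ribo-seq loci. Class sums without the most counted member were added after seeing the data. Python 3.11.15, numpy 2.4.6, pandas 2.3.3, scipy 1.17.1 and matplotlib 3.10.9 were used.

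Members and the 19 lists of related genes and markers were chosen with earlier results of these data known. Of 247 list entries, 235 were found. Genes named are, in each class, the 8 with the highest sibling FPKM and up to 6 with the largest ratio in each direction and comparison, members measured in 1 assay, and up to 3 most abundant and 3 most changed genes of a list. Others named, such as pairs and neighbours, were chosen after their values were seen. Of the 72 IDs, 9 share 4 symbols. No sequence is shown, and RefSeq GRCz12tu was used for names and neighbours only.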

Additional observations from a re-analysis of the deposited data

How the results depend on the processing

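The scaling of the Ribo-seq libraries bears most on these results, because 4 abundant loci took 18.98% of mutant and 51.07% of sibling footprint counts. DESeq2 size factors and scaling without those loci shifted the members' log2 ratios by a median of at most 0.0011 and changed no count of called members. Scaling by total counts moved the median of all genes to 0.09 in RNA, 0.74 in footprints and 0.62 in translation efficiency, and the authors' FPKM and TPM with 1 added moved it to 0.08, 0.95 and 0.86. With total counts the footprint medians were 0.92 for UGT, 0.56 for GST and 0.42 for SULT, with 1 of 35 members lower and 7 higher. Among all 15729 genes, 200 were then lower and 3474 higher in footprints. Efficiency medians were 1.70, 1.37 and 0.93, with 23 of 34 members higher, where 2889 of 14455 genes were. With FPKM and TPM the footprint medians were 0.96, 0.85 and 0.75, with 0 of 35 members lower and 14 higher. Among all genes, 123 of 15729 were then lower and 7009 higher in footprints. Efficiency medians were 1.85, 1.70 and 1.27, with 30 of 34 members higher, where 5255 of 14455 genes were. gstt1a turned to 0.10 in footprints with TPM. Total counts apply a single factor to all genes, so the distance of the classes from the median of all genes is as under TMM. A minimum of 10 counts gave 10 members lower and 2 higher in footprints, and 24 higher and 1 lower in efficiency, since it admits sparse genes. Among all genes it gave 1545 of 20836 lower and 953 higher in footprints, and 1482 of 20132 higher and 1429 lower in efficiency. In RNA, of the 35 members called lower, 30 stayed past a ratio of 2 with total counts and 31 with FPKM, and all 35 kept their direction. All 11 efficiency calls held in each alternative, but this says little. The calls are upward, and the members' efficiency moved up by a median of 0.63 with total counts and 0.96 with FPKM and TPM. With DESeq2 size factors the median shift was 0.0011, so the alternatives could hardly remove such calls. No paired analysis was possible because each group has 1 library.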
